A study of Homo sapiens with 8 samples.

Results

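U3 and 3 single-copy small nucleolar RNAs (snoRNAs) of the box C/D class, SNORD17, SNORD23, and SNORD64, were followed in RNA bound to ribosomal protein S6 (RPS6) and in total RNA of 4 cancer cell lines. The members were the rows of the gene table with 9 names, SNORD3A, SNORD3B-1, SNORD3B-2, SNORD3C, SNORD3D, U3, SNORD17, SNORD23, and SNORD64, which gave 92 of 57756 rows. The name U3 covered 82 rows, so U3 had 87 rows with the 5 SNORD3 genes. The members were selected on their name and on their mean estimated count over the libraries, so their level is a description. Among the C/D rows, the row named U3 with a mean of 42.75 estimated counts lay just above the minimum of 10 used for tests, and SNORD23, with a mean of 3.875, lay just below it. SNORD67, which is no member, followed with 1.75.

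U3 is the box C/D snoRNA that base pairs with the precursor of ribosomal RNA and is needed for the cleavages that release the RNA of the small ribosomal subunit. Most other box C/D snoRNAs guide 2′-O-methylation, in a particle with fibrillarin (FBL), NOP56, NOP58, and NHP2L1. The U3 genes have their own promoters, while most other human C/D snoRNAs are cut out of the introns of host genes. SNORD17 lies in SNX5, SNORD23 lies in GLTSCR2 (NOP53), and SNORD64 lies in the imprinted SNURF, SNRPN, and SNHG14 transcription unit of the Prader-Willi region.

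An antibody to RPS6 was used for RNA immunoprecipitation (RIP) from Hep3B (liver cancer), HCT116 (colon cancer), DU145 (prostate cancer), and SW1990 (pancreatic cancer) cells. Each cell line gave 1 RIP library and 1 input library of lysate RNA taken before the pull-down. The 8 libraries thus form 4 pairs with no replicate inside a cell line. The values of Hep3B and HCT116 cells were deposited as 1 set and those of DU145 and SW1990 cells as another. A difference that follows this division cannot be told apart from one between the sets. The titles of the liver pair name 3B and the paper names Hep3B, but Huh7 stands in the labels' field for the cell line, and the pair is called Hep3B here. A pull-down with a control antibody was not analysed here, so the values compare RIP with input only.

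The inputs held between 35796276 and 54209591 fragments (median 41320324), and the RIP libraries held between 34630231 and 42610124 (median 37641212). All 4 liver markers were highest in the Hep3B input, where ALB had 5030 FPKM (fragments per kilobase and 1000000 fragments), and were under 1 FPKM in the other inputs. They are markers of both lines named in the labels and do not tell these apart. The other labels had less support, because 3 of 4 colon markers were under 1 FPKM in HCT116 cells, 3 of 4 prostate markers were under 1 FPKM in DU145 cells with KLK3 at 0, and CDX2 was highest in SW1990 cells (86.6 FPKM). All 4 pancreatic duct markers exceeded 1 FPKM in SW1990 cells, but none was highest there.

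The 5 SNORD3 genes lie within a stretch of chromosome 17 (hg19), at chr17:18965224-18965807 for SNORD3B-1, chr17:18966761-18967449 for SNORD3B-2, chr17:19015312-19015949 for SNORD3D, chr17:19091328-19092027 for SNORD3A, and chr17:19092977-19093558 for SNORD3C. These are annotated gene spans of 582 to 700 bases, each on a locus of its own in the table. Of the 82 rows named U3, 69 were at 0 in all 8 libraries and 12 held at most 4 fragments in any library, with 30 fragments over all inputs and 12 over all RIP libraries. The remaining row named U3, ENSG00000212195, was counted on a locus with 11 genes, at chr17:56597197-56769416. SNORD23 and SNORD64 each had a second row, which was at 0 in all libraries. In all, 21 member rows were above 0 in any library and 8 reached the mean of 10 counts.

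U3 was lower in the RPS6 RIP than in the input in all 4 cell lines. In Hep3B cells, the summed U3 copies had 375 CPM (recovered fragments per 1000000 fragments of the library; 95% Wilson interval 368 to 381) in the input and 45.3 CPM (43.1 to 47.6) in the RIP. In HCT116 cells, they had 24.4 CPM (23 to 25.9) before and 4.83 CPM (4.22 to 5.54) after the pull-down. The lower level in the pull-down was thus found both in the line with the highest U3 input and in the line with the lowest. In DU145 cells, the sum was 47.9 CPM (46.0 to 49.7) in the input and 6.82 CPM (6.03 to 7.72) in the RIP. In SW1990 cells, the input had 158 CPM (154 to 162) and the RIP had 68.6 CPM (66.0 to 71.3). The intervals of RIP and input did not overlap in any pair, whereas the 4 inputs and the 4 RIP libraries overlapped as groups, because the SW1990 and Hep3B RIP libraries held more U3 than the HCT116 input. These intervals cover counting error only, since fragments are not independent molecules.

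The input exceeded the RIP library 8.26-fold for Hep3B, 5.03-fold for HCT116, 7.0-fold for DU145, and 2.31-fold for SW1990 cells. As log2 ratios of RIP to input, with 0.5 counts added, these are -3.05, -2.33, -2.81, and -1.21, with a mean of -2.35 ± 0.82 (SD, n = 4). The exact sign-flip permutation test (two-sided, over the 4 cell lines) gave p = 0.125, the smallest value that 4 pairs allow. The median gene also had a ratio below 0, between -0.48 and -0.24, and after subtraction of this median the U3 ratios were -2.81, -1.85, -2.46, and -0.87. U3 lay at the 7.10, 13.9, 6.84, and 31.7 percentile of all genes tested in Hep3B, HCT116, DU145, and SW1990 cells, so it was least depleted in SW1990 cells. In the edgeR quasi-likelihood test across all genes with the cell line as a block, the U3 sum had a log2 fold change of -2.01 (SE 0.30, adjusted p = 0.000314). Without the block the value was -2.03 (adjusted p = 0.271).

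**Figure D1:**
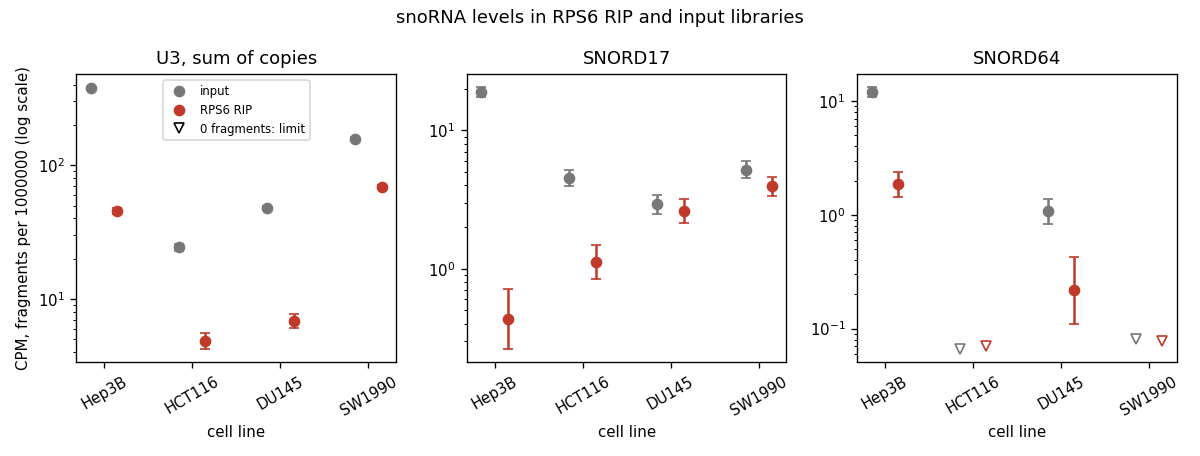
CPM (log scale, with a separate axis for each panel) of the summed U3 copies, SNORD17, and SNORD64 in the input (grey) and RPS6 RIP (red) library of each cell line. Bars are 95% Wilson intervals and open triangles mark libraries with 0 fragments, at the level of 3 fragments. U3 was lower in the RIP library of all 4 pairs, SNORD17 had intervals apart only in Hep3B and HCT116 cells, and SNORD64 was counted only in Hep3B and DU145 cells.

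The level of U3 itself differed widely between the cell lines. Among the inputs, the order was Hep3B, SW1990, DU145, and HCT116, over a 15.4-fold range. Among the RIP libraries, the order was SW1990, Hep3B, DU145, and HCT116, over a 14.2-fold range. The counting intervals of neighbours in both orders did not overlap, but each level rests on 1 library, so the spread between cultures is unknown. U3 also held a very different share of the fragments with snoRNA names. It took up 81.3% of them in the SW1990 input and 66.5% in the SW1990 RIP library, 47.5% and 44.6% in Hep3B, 28.1% and 22.0% in HCT116, and 21.1% and 15.3% in DU145 cells. The share was lower in the RIP library of each pair, by the smallest margin in Hep3B cells.

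Of the 8 member rows tested, 7 were lower in the RIP and 0 were higher, and SNORD17 did not pass the test. Among all 19921 genes tested, 24.9% were lower and 26.5% were higher in the RIP. Of the 7 rows, 6 are U3 rows. The 5 SNORD3 genes among them have near-identical sequences and are not independent of each other. How alike the row ENSG00000212195 is to them was not examined. This row reached the minimum through its inputs alone, so it had to differ. For the SNORD3 genes, the log2 fold changes were -2.21 for SNORD3A (SE 0.36, adjusted p = 0.000536), -1.94 for SNORD3B-1 (SE 0.30, adjusted p = 0.000397), -1.91 for SNORD3B-2 (SE 0.28, adjusted p = 0.000271), -1.74 for SNORD3C (SE 0.37, adjusted p = 0.00282), and -1.98 for SNORD3D (SE 0.41, adjusted p = 0.00223). Each was lower in 4 of 4 cell lines, a pattern seen in 40.7% of all genes tested. The 5 fold changes spanned 0.47 on the log2 scale, beside standard errors of 0.28 to 0.41 for the single copies. These errors do not measure differences between copies, which were not tested.

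The copies differed in which cell line held most of them. SNORD3A had 70.5, 9.76, 11.5, and 28.7 CPM in the inputs of Hep3B, HCT116, DU145, and SW1990 cells and 6.76, 1.5, 1.44, and 12.8 CPM in the RIP. SNORD3B-1 had 158, 2.28, 10.4, and 35.8 CPM in the same inputs and 21.3, 0.446, 1.60, and 15.4 CPM in the RIP, and its range over the inputs (69.3-fold) was the widest of the 5 SNORD3 genes. SNORD3A had the narrowest (7.22-fold). SNORD3B-2 was the only one of the 5 that was highest in the SW1990 input, with 33.4, 4.87, 13.4, and 55.9 CPM in the inputs and 4.88, 1.08, 2.15, and 20.6 CPM in the RIP. SNORD3D had between 4.76 and 80.1 CPM in the inputs and between 0.843 and 13.2 CPM in the RIP, and SNORD3C had between 2.44 and 24.2 CPM and between 0.625 and 6.49 CPM. Both were highest in the Hep3B input and in the SW1990 RIP. Within a cell line the log2 ratios of the 5 genes lay close together, from -3.38 to -2.77 in Hep3B, from -2.69 to -1.88 in HCT116, from -3.23 to -2.48 in DU145, and from -1.44 to -0.81 in SW1990 cells, so each of the 5 SNORD3 genes had its ratio nearest to 0 in SW1990 cells.

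The U3 fragments were divided between the copies in much the same way in the RIP and the input of a cell line. SNORD3B-1 had the largest share in Hep3B cells, with 42.2% of the input and 47.0% of the RIP fragments. SNORD3A led in HCT116 cells, with 40.1% and 31.1%. SNORD3B-2 led in both remaining lines, with 28.0% and 31.5% for DU145 and 35.3% and 30.1% for SW1990 cells. The largest difference of any copy between RIP and input of a line was 4.82 percentage points for Hep3B, 8.99 for HCT116, 4.30 for DU145, and 5.27 for SW1990 cells. Between the inputs of different lines, the largest difference of a copy was between 7.31 points (DU145 and SW1990, SNORD3B-2) and 32.8 points (Hep3B and HCT116, SNORD3B-1), so the HCT116 pair differed within itself by more than the inputs of DU145 and SW1990 cells did. SNORD3C had a small share in all libraries, between 6.45% and 13.6%. These are shares of fragments, not corrected for gene length.

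**Figure D2:**
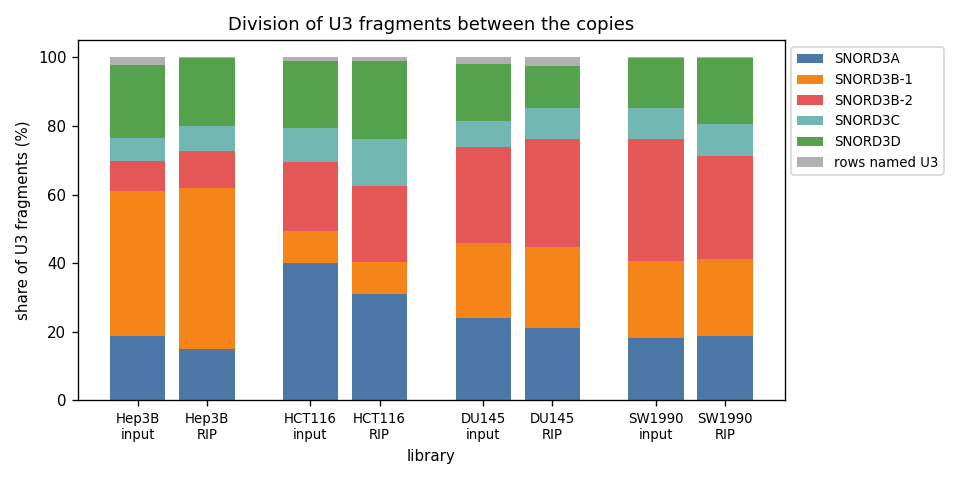
Share of all U3 fragments (%) that was counted on each U3 copy, as stacked bars, in the input and RIP library of each cell line. SNORD3B-1 was the largest part in Hep3B, SNORD3A in HCT116, and SNORD3B-2 in DU145 and SW1990 cells, in the input and the RIP alike.

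The deposited counts of all U3 rows were whole fragments, so no fragment had been split between copies. How a fragment that fits several copies was placed, and whether it was counted more than once, is not given in the sources used here, and the sums and shares depend on it. FPKM and counts did not change equally. For SNORD3B-1 in DU145 cells, the log2 ratio came to -1.39 in FPKM (58.5 and 22.3 FPKM in input and RIP) and -2.69 as a share of fragments. The length implied by count over FPKM, relative to that of SNORD17 in the same library, varied for SNORD3B-1 between 1.8 and 6.19, for SNORD3B-2 between 3.33 and 7.05, for SNORD3C between 5.31 and 6.45, for SNORD3D between 4.85 and 6.45, and for SNORD3A between 1.15 and 2.11. This ratio is not a ratio of bases. In the Hep3B input, SNORD3B-1 stood at 6.13 times SNORD17. Genes alone on their locus with like values spanned a median of 476.5 bases for SNORD3B-1 and 218 for SNORD17. Mature U3 is shorter than SNORD17, so the SNORD3 rows are longer than mature U3, and their fragments cannot be taken as mature U3 alone. All 5 SNORD3 genes were lower in the RIP of each line in FPKM too.

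The row ENSG00000212195 held most of the fragments of the rows named U3 and was counted only in inputs, as were 6 weak rows with at most 4 fragments each over all inputs. It had 295 fragments in the Hep3B, 43 in the DU145, 12 in the SW1990, and 0 in the HCT116 input. All 4 RIP libraries had 0 fragments, which allows up to 0.0866 CPM in the Hep3B RIP library. With the RIP libraries set to a floor of 3 fragments each, the row was at least 95.1-fold lower in the Hep3B RIP library, at least 9.73-fold lower in DU145, and at least 4.15-fold lower in SW1990. Over all 4 pairs, with 350 input fragments and a floor of 3 for the group, it was at least 103-fold lower. Since the row reached the minimum through its inputs alone, its test is not used as support, and its call was lost with DESeq2 (adjusted p = 0.0827) and without the block (adjusted p = 0.0905). The SNORD3 genes of the same Hep3B RIP library together held 1568 fragments.

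SNORD17, which has a single copy in an intron of SNX5, was far below its input in 2 cell lines and near it in the other two. The row lies on a locus of 5 genes at chr20:17922240-18039832 (hg19), and its counts were whole fragments. In Hep3B cells, SNORD17 had 18.9 CPM (17.5 to 20.4) in the input and 0.433 CPM (0.263 to 0.715) in the RIP. In HCT116 cells, it had 4.54 (3.96 to 5.20) and 1.13 (0.850 to 1.49). In these 2 lines the intervals of RIP and input were far apart. Both lines belong to the same deposited set, so cell line and set cannot be told apart here. In DU145 cells, SNORD17 had 2.91 (2.49 to 3.41) and 2.61 (2.14 to 3.19), and in SW1990 cells it had 5.21 (4.52 to 5.99) and 3.95 (3.37 to 4.63), with overlapping intervals in both.

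The input therefore exceeded the RIP library 42.5-fold in Hep3B and 4.01-fold in HCT116, but 1.12-fold in DU145 and 1.32-fold in SW1990 cells. After subtraction of the median gene, the log2 ratios were -5.17, -1.52, 0.19, and -0.06, and the DU145 value turned from lower to higher, as it did in FPKM (0.21). The edgeR test gave a log2 fold change of -1.37 for SNORD17 (SE 0.80, adjusted p = 0.180). Without the minimum on counts it was -1.43 (adjusted p = 0.00522), and with the Hep3B pair left out it was -0.53 (adjusted p = 0.353). The host gene SNX5, a sorting nexin of endosomes, had log2 ratios of -0.51, -1.11, -0.50, and -1.04 in the same order and a fold change of -0.44 (SE 0.19, adjusted p = 0.0703). The RIP to input ratio of SNX5 thus did not share the large difference of the SNORD17 ratio between Hep3B and DU145 cells.

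SNORD64 was counted in Hep3B and DU145 cells only. In Hep3B cells, it had 12 CPM (10.9 to 13.2) in the input and 1.85 CPM (1.45 to 2.36) in the RIP. In DU145 cells, it had 1.07 (0.828 to 1.38) and 0.217 (0.110 to 0.429), from 58 and 8 fragments. All 4 libraries of HCT116 and SW1990 cells had 0 fragments, which allows up to 0.0658 and 0.0704 CPM in the HCT116 input and RIP library, and 0.0809 and 0.0779 in those of SW1990. In such bulk libraries, fewer cells with an RNA and less of it per cell cannot be told apart.

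The input exceeded the RIP library 6.45-fold in Hep3B and 4.75-fold in DU145 cells, so SNORD64 was lower in 2 of the 2 cell lines with fragments. The edgeR test gave a log2 fold change of -2.17 (SE 0.71, adjusted p = 0.0316). This call was lost with DESeq2 (-1.84, adjusted p = 0.0764), without the block (-2.44, adjusted p = 0.605), with limma on log2 FPKM with 1 added (-0.89, adjusted p = 0.101) or 0.1 added (-0.96, adjusted p = 0.147), and with the DU145 pair left out (-2.37, adjusted p = 0.0877). Without the Hep3B pair the row fell under the minimum. In the 2 lines with fragments alone, a choice made after the values were seen, it was -2.24 (adjusted p = 0.0123). The row belongs to a locus of 80 genes at chr15:25068793-25492435 (hg19). Its count over FPKM was 1.63 to 2.07 times that of the SNORD17 row, which is not a ratio of bases. In the Hep3B input, genes alone on their locus with like values spanned a median of 278 bases, beside 218 for SNORD17. Mature SNORD64 is nevertheless shorter than SNORD17. As for the SNORD3 genes, the row is thus longer than the mature snoRNA.

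The host transcripts of this locus were present in the same cell lines as SNORD64. SNRPN, which encodes a core protein of spliceosomal particles, had 33.8 and 71.1 CPM in the Hep3B input and RIP, and 13.5 and 16.4 in those of DU145 cells. SNHG14, the long noncoding host of the snoRNAs, had 383 and 490 in Hep3B and 84.3 and 216 in DU145 cells. Neither gene had more than 16 fragments in any library of HCT116 and SW1990 cells. SNRPN (log2 fold change 0.90, adjusted p = 0.0570) and SNHG14 (0.73, adjusted p = 0.188) did not pass the edgeR test and had higher values in the RIP in both lines, while SNORD64 was lower there.

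A few further rows of the locus were chosen after their values were seen. PWAR6, a noncoding RNA, had 78.2 and 14.6 CPM in the Hep3B input and RIP and 6.40 and 2.23 in DU145 cells, with the lower value in the RIP in both, like SNORD64. SNORD116-20 and SNORD109A are the 2 rows with other SNORD names that reached a mean of 10 counts, out of 389 such rows. SNORD116-20 had 27.5 and 21.6 in Hep3B and 4.39 and 5.49 in DU145 cells. SNORD109A had 6.84 and 6.44 in Hep3B and 2.25 and 6.71 in DU145 cells. The SNORD116-20 intervals were apart in Hep3B, with the RIP lower, and overlapped in DU145 cells, while the SNORD109A intervals overlapped in Hep3B and were apart in DU145 cells, with the RIP higher. Neither row passed the test (adjusted p = 0.972 and 0.249). All 3 rows were at 0 in HCT116 and SW1990 cells. In the Hep3B input, SNORD116-20 had 1006 estimated counts at 25.7 FPKM and SNORD109A had 250 at 21.6 FPKM. The SNORD64 row had 438 estimated counts at 126 FPKM there. Count over FPKM grows with row length and was larger for SNORD116-20 and SNORD109A than for SNORD64. The fragments of SNORD116-20 and SNORD109A thus cannot be taken as mature snoRNAs alone, and whether the mature snoRNAs were lower in the RIP was not tested.

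**Figure D3:**
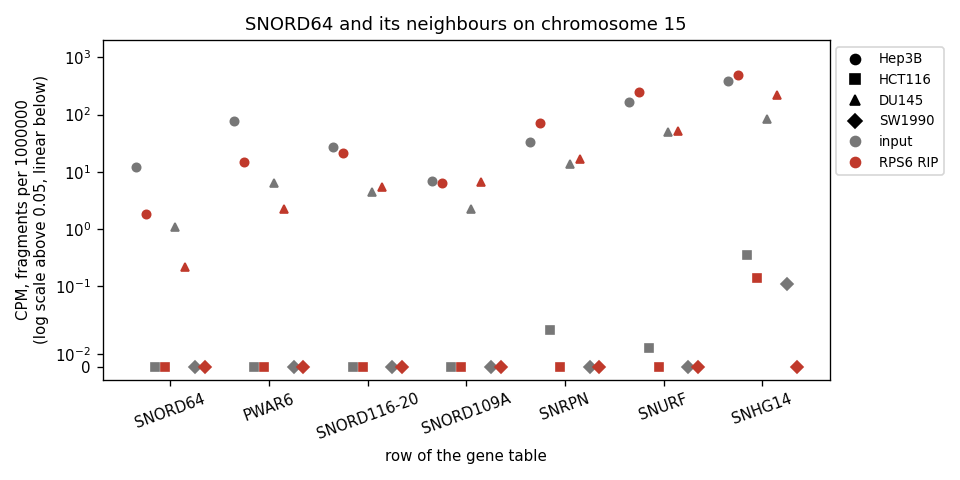
CPM (log scale above 0.05, linear below) of SNORD64 and 6 other transcripts of its locus in the input (grey) and RIP (red) library of Hep3B (circles), HCT116 (squares), DU145 (triangles), and SW1990 (diamonds) cells. All 7 were present in Hep3B and DU145 and at or near 0 in HCT116 and SW1990 cells. SNORD64 and PWAR6 were lower in the RIP while SNRPN and SNHG14 had higher values there. SNURF, the sum of its rows, was higher in the Hep3B RIP (168 and 250 CPM in input and RIP). In DU145 cells its values were close (49.2 and 51.0 CPM), with overlapping 95% Wilson intervals (47.3 to 51.1 and 48.7 to 53.3).

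The promoter of SNURF and SNRPN is shown because these genes and SNORD64 were present or near 0 together in the 4 cell lines. It is the promoter whose CpG methylation is known to silence the maternal copy of the locus, but methylation was not measured in these libraries. The 250 bases before the RefSeq start of SNURF (GRCh38.p14, chr15:24954737-24954986, + strand, 5′ to 3′) are printed with each CG dinucleotide in capitals. 
SNURF promoter: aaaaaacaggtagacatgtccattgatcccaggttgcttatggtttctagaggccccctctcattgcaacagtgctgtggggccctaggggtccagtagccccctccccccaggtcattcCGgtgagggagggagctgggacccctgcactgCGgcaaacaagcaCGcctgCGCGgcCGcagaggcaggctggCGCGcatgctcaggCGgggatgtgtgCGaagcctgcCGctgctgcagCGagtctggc
The window holds 12 CG dinucleotides. Of 34943 RefSeq promoter windows of this length, 48.4% hold at least as many, with a median of 11, so the number is ordinary.

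SNORD23 could not be compared between RIP and input, because its mean lay under the minimum of 10 counts. Its estimates were 0.474 fragments in the Hep3B input and 7.86 in the Hep3B RIP library, and between 1.26 and 4.88 in the other 6 libraries. None of these values is a whole fragment, and the row shares a locus of 3 genes at chr19:48248778-48272097 (hg19) with its host GLTSCR2. The FPKM of SNORD23 in Hep3B cells, 3.37 in the input and 63.9 in the RIP, therefore rests on fewer than 8 fragments. Without the minimum, the log2 fold change was 1.31 (SE 1.59, adjusted p = 0.644). GLTSCR2, a nucleolar protein that binds the large ribosomal subunit precursor, rose in the RIP in the edgeR test (log2 fold change 0.87, SE 0.21, adjusted p = 0.00558). Its log2 ratios were 0.96, 0.05, 0.97, and 0.13 in Hep3B, HCT116, DU145, and SW1990 cells. All 4 were above 0, but the HCT116 intervals overlapped (213 to 221 CPM in the input and 220 to 229 in the RIP).

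The summed U3 was then compared with the summed SNORD17, SNORD23, and SNORD64 and, for reference, with the sums of the tested H/ACA snoRNAs (6 SNORA rows), which guide pseudouridylation, and of the tested small Cajal body RNAs (9 SCARNA rows), which guide modification of spliceosomal RNAs. The 3 single-copy snoRNAs together had log2 ratios of -3.62, -1.90, -0.49, and -0.40 in Hep3B, HCT116, DU145, and SW1990 cells. U3 minus this sum was 0.57, -0.43, -2.32, and -0.81. U3 was thus nearer to its input than the sum in Hep3B and farther from it in the other 3 cell lines, with a mean difference of -0.75 ± 1.20 (SD, n = 4; the same exact permutation test, p = 0.375, adjusted 0.5 over 3 comparisons). The Hep3B value turned negative, and all 4 lines were then negative at the smallest possible p of 0.125, with the mean of the 3 single ratios in place of their sum (Hep3B -1.40, mean -1.43), without SNORD17 (-0.52, mean -1.14), and in FPKM (-0.76, mean -1.21). Each of these alternatives includes SNORD23, which had at most 7.86 fragments in any library and a log2 ratio of 3.15 in Hep3B cells. In FPKM, SNORD23 gave 63.9 of the 104 FPKM of the sum in the Hep3B RIP library. Without SNORD17, the HCT116 and SW1990 values rest on SNORD23 alone. The first alternative also includes SNORD64 in 2 cell lines where it had 0 fragments. The number of U3 fragments per SNORD17 fragment, in which library size cancels, went from 19.8 in the input to 105 in the RIP in Hep3B cells, from 5.37 to 4.29 in HCT116, from 16.4 to 2.61 in DU145, and from 30.4 to 17.4 in SW1990 cells.

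As summed counts, the H/ACA rows had log2 ratios of -1.01, -0.02, 0.34, and -0.14. In the edgeR test, 2 of the 6 fell, SNORA73B (-3.43, adjusted p = 0.00660) and SNORA53 (-4.16, adjusted p = 0.00974), and the other 4 did not pass. Among all genes tested, 24.9% were lower and 26.5% were higher in the RIP. U3 minus the H/ACA sum was -2.04, -2.31, -3.15, and -1.07, with a mean of -2.14 ± 0.86 (SD, n = 4). It was negative in 4 of 4 cell lines, at the smallest p that the exact permutation test allows (0.125, adjusted 0.375). The order depended on the unit, because the H/ACA sum in FPKM had log2 ratios of -4.62, -1.87, -2.49, and -2.18, and U3 minus it, an alternative chosen after the values were seen, was 1.54, -0.21, 0.52, and 1.41 (mean 0.81 ± 0.82, SD, n = 4; exact permutation test, p = 0.25). In Hep3B cells, the H/ACA sum had 720 estimated counts and 269 FPKM in the input but 412 counts and 10.8 FPKM in the RIP. Its count over FPKM, which grows with row length, was thus much larger in the RIP. The difference in counts therefore cannot be taken as one between U3 and mature H/ACA snoRNAs alone. U3 was itself lower in the RIP in all 4 lines in FPKM too (log2 ratios -3.09, -2.08, -1.97, and -0.77). The Cajal body sum had lower log2 ratios than U3 in 3 lines, with -4.48, -3.23, -3.71, and 0.13. U3 minus this sum was 1.43, 0.90, 0.90, and -1.34, with a mean of 0.47 ± 1.23 (SD, n = 4; exact permutation test, p = 0.5, adjusted 0.5). In SW1990 cells, the summed U3 was lower in the RIP and the Cajal body sum was not. Row by row, 6 of the 9 Cajal body RNAs fell in the edgeR test, 0 rose, and 3 did not pass. SCARNA7, SCARNA13, and SCARNA15 were lower in 4 of 4 cell lines, SW1990 included, and each of the others was lower in 3.

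**Figure D4:**
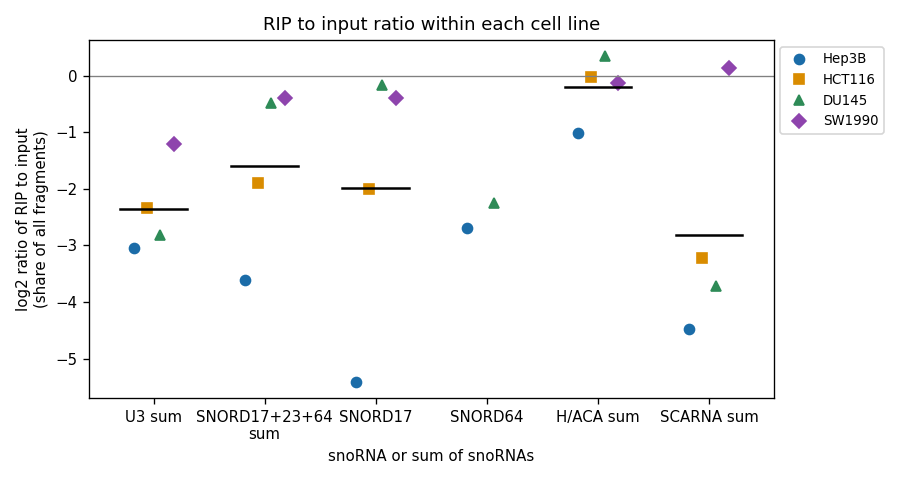
Log2 ratio of RIP to input, as a share of all fragments, for U3, the 3 single-copy C/D snoRNAs together, SNORD17, SNORD64, and the H/ACA and Cajal body sums. Each symbol is a cell line and black lines are means of 4 cell lines. U3 was below 0 in all 4 lines with the SW1990 value nearest to 0, SNORD17 ranged from -5.41 to -0.16, and SNORD64 has a value in 2 lines only.

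Both other separately transcribed C/D snoRNAs could not be compared. SNORD118 (U8), which acts in large subunit RNA processing, was at 0 fragments in all 8 libraries, and SNORD13 (U13) had 3 fragments over all inputs and 0 over all RIP libraries. The depth of these libraries does not show either of them to be absent.

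The mRNAs of proteins that bind U3 moved in both directions. The mRNA of RRP9, the protein that binds U3 specifically, rose in the RIP in 4 of 4 cell lines (log2 fold change 2.06, SE 0.20, adjusted p = 2.15e-05). Of the core C/D proteins, NOP58 (-1.38, adjusted p = 0.000452) and NHP2L1 (-0.74, adjusted p = 0.0170) fell, while FBL (-0.08, adjusted p = 0.751) and NOP56 (0.16, adjusted p = 0.595) did not pass the test. Among the mRNAs of 38 proteins of the small subunit processome, the large particle that U3 nucleates, 15 rose, 14 fell, and 9 did not pass the test. Over all 19921 genes tested, 26.5% were higher and 24.9% were lower in the RIP. The median log2 fold change of the 38 mRNAs was 0.20, beside -0.05 over all genes tested. The 2 highest were TBL3 (3.11) and NOL6 (2.66), and the 2 lowest were UTP23 (-3.27) and KRR1 (-2.83).

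The levels most like U3 over the 8 libraries, by the Pearson correlation of log2 CPM of the estimated counts, were those of SLC25A53, a mitochondrial carrier family member (r = 0.98), RNU2-63P, a pseudogene of the U2 spliceosomal RNA (0.98), GS1-293C5.1 (0.97), TPM3P9 (0.97), and PBLD (0.97). They are the top 5 of 19915 genes over 4 pairs of libraries that share cell lines, and the values are a description. SNORD17 had r = 0.61 and SNORD64 had 0.41 with U3, so neither single-copy snoRNA was among the genes most like it.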

How the data were processed

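RPS6 RIP and input RNA was sequenced from 4 cell lines in 8 libraries. According to the paper and the submitters' processing notes, the authors aligned reads to human genome version 19 with TopHat (TopHat2 2.0.9), after CASAVA 1.8. The counting tool and annotation are not given in the sources used here. The authors deposited FPKM values, normalized for length and depth, and an estimated count per gene, scaled by 1 step per library. The deposited comparison columns (fold changes, p-values, and q-values of 1 library against 1 library) are the authors' own and were not used. All other value columns entered the analysis.

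The estimated counts, which the design had taken for raw counts, were rounded and tested with edgeR 4.0.16 (R 4.3.3; quasi-likelihood, TMM, cell line as a block, mean of at least 10 counts, Benjamini-Hochberg, threshold 0.05). Standard errors were derived from the F statistic. The U3 rows were replaced by 1 summed row in a separate fit. Pairing comes from the shared cell line. The p-values of the blocked fits and sign-flip tests rest on the spread of the RIP to input ratio between cell lines, not on that of levels. Fragments were recovered as the deposited count over the step of its library. Between 92.4% and 94.0% of values above 0 came out whole, within 0.02 fragments. Levels are recovered fragments per 1000000 of a library (CPM), with 95% Wilson intervals and a floor of 3 fragments. A ratio was not formed in a cell line where both libraries had at most 3 fragments. Ratios add 0.5 counts. Sign-flip tests ran over 16 sign patterns, in Python 3.11.15 with NumPy 2.4.6, pandas 2.3.3, and SciPy 1.17.1, with matplotlib 3.10.9 for figures. Both tests were checked on simulated data. Alternatives used DESeq2 1.42.0, limma 3.58.1 with FPKM as log2(FPKM + 1) and log2(FPKM + 0.1), no block, no minimum or a minimum of 50 counts, other sums, and each pair left out. Genes named are the members, their hosts, C/D core proteins, RRP9, U8 and U13, the 2 highest and 2 lowest processome mRNAs past the threshold, the H/ACA and Cajal body sums, the 5 genes most like U3, and cell line markers. PWAR6, SNORD116-20, SNORD109A, SNORD67, SNORA73B, SNORA53, SCARNA7, SCARNA13, and SCARNA15 were added after their values were seen. Members and lists were chosen with earlier results of these data known. A gene of the cell line check is not reported here. The promoter sequence is from RefSeq (GRCh38.p14), and none of its coordinates was used with the hg19 tables.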

Additional observations from a re-analysis of the deposited data

Results flagged for a closer look

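In the groups of 4 libraries, the highest or lowest value was compared with the rest by Dixon's ratio, over 18 groups of 4 values. Chance flags about 1 in 20 such groups. The Hep3B library stood apart in 3 of them. SNORD17 had 18.9 CPM in the Hep3B input, where the gap to the next input was 0.856 of the whole range. SNORD64 had 12 CPM in the Hep3B input (0.911 of the range) and 1.85 in the Hep3B RIP library (0.882 of the range). All 3 ratios exceed Dixon's 95% critical value for 4 values. The SNORD64 groups include 2 libraries at 0 fragments each, so the ratio there compares Hep3B with DU145 in effect. The U3 sum exceeded this ratio neither in the inputs nor in the RIP libraries.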

How the results depend on the processing

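The U3 sum stayed lower in the RIP and past the threshold under all alternatives run except that without the replicate block, where its log2 fold change was -2.03 (adjusted p = 0.271). Without that pairing of libraries by cell line, 2771 genes were called instead of 10242, 1427 higher and 1344 lower. Leaving out each pair gave U3 values between -2.38 and -1.80 and between 8532 and 9891 genes called. SNORD17 passed the threshold without a minimum on counts (-1.43, adjusted p = 0.00522) and lay between -2.06 and -0.53 with a pair left out, nearest to 0 without Hep3B. SNORD64 lost its call with DESeq2 (-1.84, adjusted p = 0.0764), without the replicate block (-2.44, adjusted p = 0.605), with limma on log2(FPKM + 1) (-0.89, adjusted p = 0.101) or log2(FPKM + 0.1) (-0.96, adjusted p = 0.147), and without the DU145 pair (-2.37, adjusted p = 0.0877). With a pair left out it lay between -2.37 and -2.20, and without the Hep3B pair its mean fell under the minimum and it could not be fitted. The cause of these changes was not tested. U3 minus the single-copy sum lay between -1.18 and -0.22 with a pair left out, nearest to 0 without DU145. It was -1.43 with the mean of the 3 ratios, -1.14 without SNORD17, and -1.21 in FPKM. Hep3B turned negative in each of the latter (p = 0.125 by the exact permutation test). These values rest in part on SNORD23, with at most 7.86 fragments in any library. U3 minus the H/ACA sum reversed from -2.14 in counts to 0.81 in FPKM, and U3 minus the Cajal body sum was 0.47 and 0.32. Of 59 alternatives for single U3 copies, 52 kept direction and call and 7 lost the call. These include the alternatives for the row ENSG00000212195, which reached the minimum through its inputs alone and had to differ. For that row they are no support. SNORD23 has no fitted value under a minimum. The depth limits SNORD64 in DU145 cells, SNORD23, and all rows named U3 but 1.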
